A study of Mus musculus with 36 samples.

Results

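The intestinal brush border genes Alpi, Sis, Lct, Mgam, Treh, Anpep, Dpp4 and Vil1 were followed in mouse jejunal organoids. They were chosen as a set of 8 by their known role at the apical surface of enterocytes, out of 52636 genes listed, and matched by symbol to the Ensembl identifiers of the count data. All 8 were detected, with a mean over the 36 libraries of at least 0.5 CPM (counts scaled to a fixed library total, with TMM factors), and all 8 were among the 15497 genes that passed the filter on low counts and were tested.

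The organoids were grown from crypts of the jejunum of C57BL/6 mice, whose age the labels do not give. From their total RNA 36 libraries were made and sequenced, 6 for each of 6 conditions. The medium was IntestiCult alone (complete media), IntestiCult mixed with concentrated conditioned media of quiescent fibroblasts (QCM) or of senescent fibroblasts (SCM), or complete media with added Wnt5a, a secreted Wnt ligand, and the exposure lasted 2 days. Each of these was combined with a control IgG, and SCM and Wnt5a were also combined with an antibody against Ptk7, a receptor-like protein of the Wnt pathway, so that every culture contained an antibody. According to the study's methods, the conditioned media came from mouse embryonic fibroblasts that had been deprived of serum (QCM) or made senescent by X-rays or doxorubicin (SCM). No library used here combined complete media or QCM with anti-Ptk7. Conditioned media hold many secreted factors, so QCM and SCM are not defined by any single factor. The smallest library held 9581589 counts, the largest 21029769, and the median library 13490071. The epithelial genes Epcam, Cdh1, Krt8, Krt18, Krt19 and Krt20 were abundant, with Epcam at a mean of 2453 CPM, while the 6 fibroblast markers summed to between 0.00 and 1.32 CPM in a library, with Col3a1 and Dcn at 0 in all of them. The 5 leukocyte markers summed to between 0.00 and 2.44 CPM.

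The brush border is the dense array of microvilli on the apical face of the absorptive enterocyte. Its membrane carries the enzymes that finish digestion, splitting disaccharides, peptides and phosphate esters beside the transporters that take up the products, and a core of bundled actin holds each microvillus upright. These genes are switched on as cells leave the crypt, not all together but at different heights of the villus, under transcription factors that include the HNF4, HNF1, CDX and GATA families.

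Alpi encodes intestinal alkaline phosphatase, and Akp3 encodes a closely related phosphatase of the duodenum. Alpi changed in more comparisons than any other of the 8 genes, and the 250 bases before its start are shown beside those of Akp3, of Treh and of Anpep (RefSeq, GRCm38.p6). Capitals mark the letters CAAAGTCCA, a consensus of the enterocyte factor HNF4, searched on both strands.
Alpi: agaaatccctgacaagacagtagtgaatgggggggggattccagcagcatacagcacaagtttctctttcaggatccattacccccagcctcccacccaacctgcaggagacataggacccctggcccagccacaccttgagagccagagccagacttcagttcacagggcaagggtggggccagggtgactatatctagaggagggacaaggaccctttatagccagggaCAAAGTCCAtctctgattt
Akp3: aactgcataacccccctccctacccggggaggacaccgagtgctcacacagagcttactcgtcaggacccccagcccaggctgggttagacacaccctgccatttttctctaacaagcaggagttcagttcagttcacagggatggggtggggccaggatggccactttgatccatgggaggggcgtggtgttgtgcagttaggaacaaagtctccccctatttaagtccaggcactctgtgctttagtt
Treh: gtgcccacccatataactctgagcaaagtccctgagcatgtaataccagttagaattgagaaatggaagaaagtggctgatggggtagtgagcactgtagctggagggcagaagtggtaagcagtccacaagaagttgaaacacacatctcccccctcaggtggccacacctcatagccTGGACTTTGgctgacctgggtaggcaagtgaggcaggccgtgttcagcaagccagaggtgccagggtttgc
Anpep: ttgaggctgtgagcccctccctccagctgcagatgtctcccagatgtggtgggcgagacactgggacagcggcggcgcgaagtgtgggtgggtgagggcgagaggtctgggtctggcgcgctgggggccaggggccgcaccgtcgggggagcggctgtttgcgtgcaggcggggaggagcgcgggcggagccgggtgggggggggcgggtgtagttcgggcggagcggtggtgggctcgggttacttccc
The Alpi window lay at chr1:87101607-87101856 on the minus strand, and its match began 19 bases before the start. The Treh window lay at chr9:44672983-44673232 on the plus strand, with its match on the opposite strand, 71 bases before the start. The windows of Akp3 (chr1:87124704-87124953, plus strand) and Anpep (chr7:79848211-79848460, minus strand) held no match to these letters. The annotation used for positions extends Anpep beyond the start that RefSeq gives. Which Anpep start the organoids used was not tested, so this window may not be the one in use. Of 32851 promoter windows searched, 0.384% held a match. The letters AGATAA, known from factors of the GATA family, were found in the windows of Lct, Mgam and Dpp4 and in 9.99% of all windows. The letters TTTATG, known from the CDX factors, were found in those of Sis and Lct and in 10.8% of all. The letters GTTAAT, known from the HNF1 factors, were found in that of Sis and in 6.43% of all. The letters GGAATG, known from the TEAD factors, were found in those of Mgam and Dpp4 and in 12.6% of all. A match to such letters describes the sequence and does not show that a factor binds there.

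Compared between genes per kb of merged exon length, Vil1 had by far the highest level, with a mean of 216 CPM per kb over the 36 libraries. Alpi followed at 39.0, Sis at 35.2, Mgam at 19.5, Dpp4 at 16.9 and Anpep at 15.9 CPM per kb, and Lct at 5.56 and Treh at 3.66 were lowest. The study counted reads in coding sequence, and per kb of coding length Dpp4 stood higher, at 46.8 CPM per kb, close to Sis at 48.1. Reads from near-identical sequence could affect few of these values, since 2.92% of the distinct 50-base stretches of Dpp4 transcripts, 2.4% of those of Alpi and at most 1.45% of those of the other six also occur in another gene. The summed counts of the 8 genes made up 0.121% to 0.175% of a library's total. The share of a gene's variance in log2 CPM that lay between conditions was 71.9% for Alpi, 66.8% for Vil1 and 59.5% for Anpep, and between 4.05% for Lct and 27% for Mgam in the other five.

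**Figure D1:**
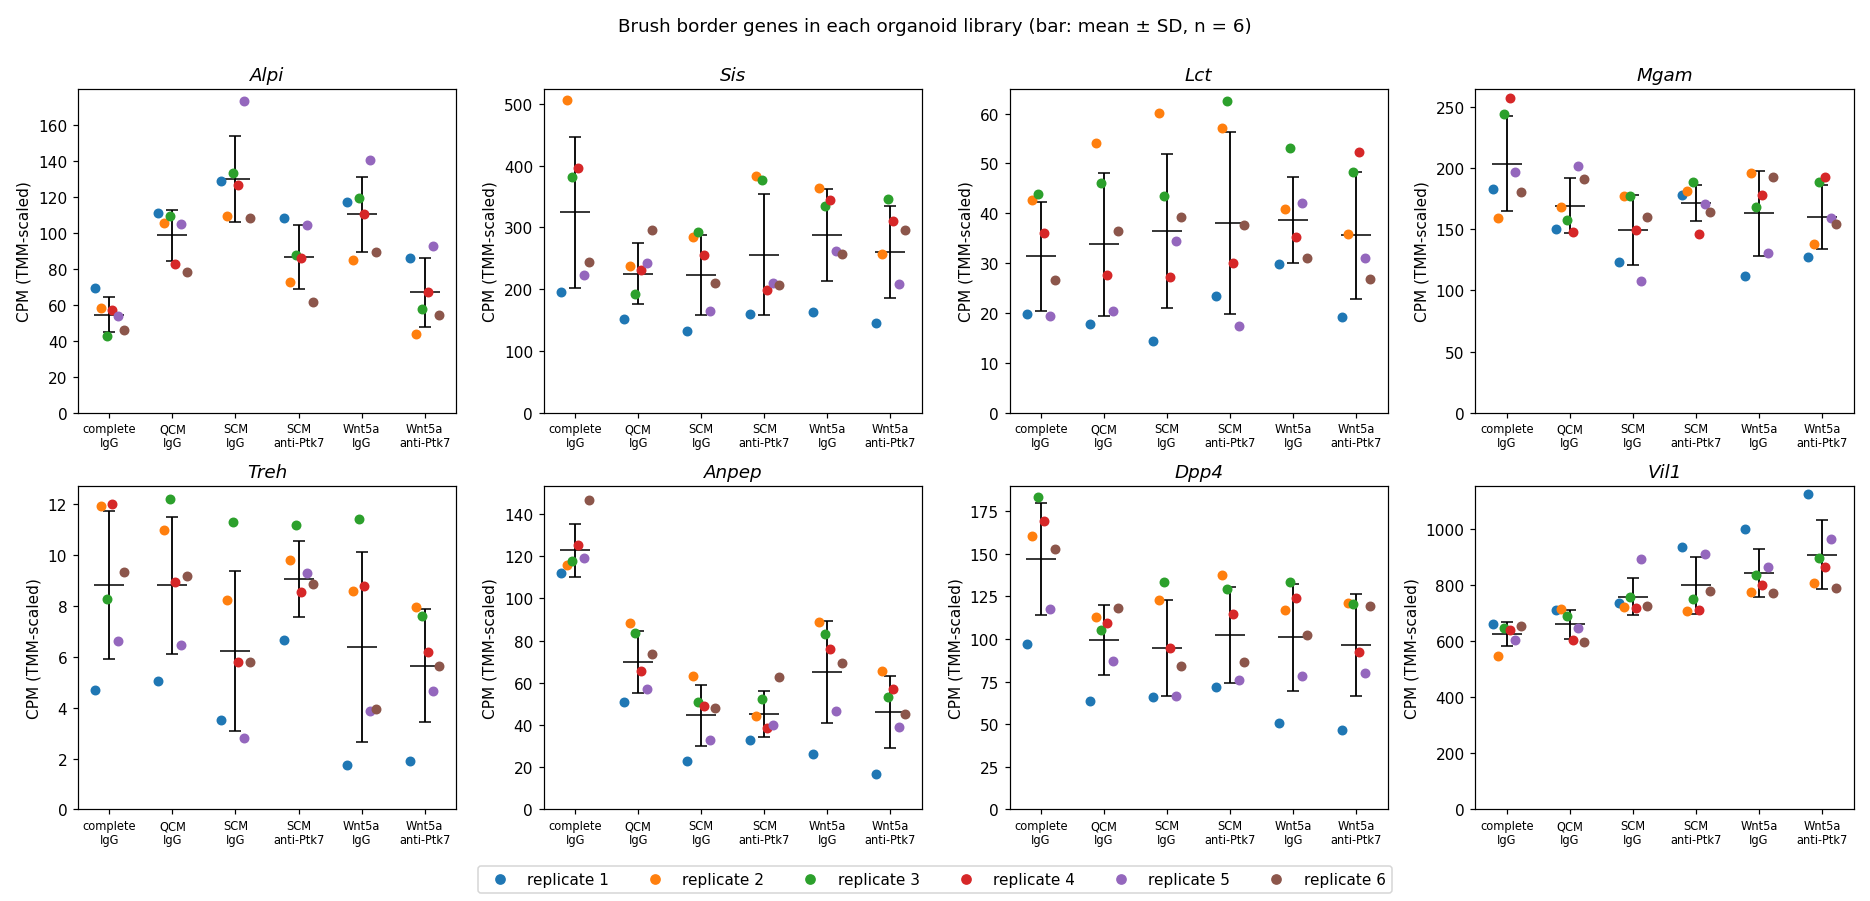
TMM-scaled CPM (linear axes from 0) of the 8 genes in each of the 36 libraries, by condition, with the replicate number as colour and the mean ± SD of 6 libraries as bars. Alpi was lowest and Anpep highest in complete media, Vil1 had its lowest mean in complete media, and replicate 1 (blue) was the lowest library of Sis and of Dpp4 in all 6 conditions.

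Alpi was higher in every medium that was compared with complete media. In complete media its 6 libraries lay between 42.7 and 69.4 CPM, with a median of 55.3. In QCM they lay between 78.3 and 111 (median 105), in SCM between 108 and 173 (median 128) and in Wnt5a between 84.6 and 141 (median 114). All 18 libraries of these 3 conditions therefore lay above the highest library of complete media. Alpi rose 1.81-fold in QCM (log2 fold change 0.86 ± 0.162 SE, adjusted p = 0.00443), 2.39-fold in SCM (1.26 ± 0.163, adjusted p = 2.12e-06) and 2.02-fold in Wnt5a (1.02 ± 0.163, adjusted p = 2.56e-05). A higher level in bulk RNA can come from more cells that express the gene or from more RNA per cell, and these cannot be told apart here. Alpi was not called in SCM against QCM, where the difference was 0.40 with a 95% interval above 0 (0.09 to 0.71) and an adjusted p of 0.183 over all genes. With the replicate number as a block it was 0.39, which passed on its p-value (adjusted p = 0.0218) but not on the fold change. Wnt5a against SCM was −0.24 and not called (interval −0.55 to 0.07, adjusted p = 0.438).

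Anti-Ptk7 lowered Alpi in both media in which it was tested. With the antibody the SCM libraries lay between 61.2 and 108 CPM (median 86.7), and 5 of the 6 were below the lowest library of SCM with IgG. In Wnt5a they lay between 43.4 and 92.8 CPM (median 62.3), and 4 of the 6 were below the lowest library with IgG. Alpi fell 1.65-fold with the antibody in Wnt5a (log2 −0.72 ± 0.161, adjusted p = 0.0104) and by a smaller amount in SCM (−0.59 ± 0.160, adjusted p = 0.0403), and the difference between these effects was −0.14 ± 0.227 (adjusted p = 0.999). The change in SCM lay at the fold-change cutoff. It kept its direction but was no longer called in several other fits. With DESeq2, voom with limma and upper-quartile scaling it was −0.58, with adjusted p of 0.0176, 0.0238 and 0.0370, and failed on the fold change. With no filter it was −0.59 and failed on its adjusted p of 0.0527. In a fit of those groups alone it was −0.58, and its adjusted p of 0.0824 also failed. It was not called without any single one of SCM + IgG replicates 1, 3, 4 and 5 and SCM + anti-Ptk7 replicates 2, 3, 4 and 6. There it was between −0.60 and −0.48, with adjusted p between 0.0540 and 0.106. With the replicate number as a block it was −0.60 (adjusted p = 0.000625). In a fit of the Wnt5a groups alone the change there was −0.72 with an adjusted p of 0.0634. Ordered by mean, Alpi was highest in SCM + IgG (130 ± 23.7 CPM, SD, n = 6), then in Wnt5a + IgG (110 ± 20.7), QCM + IgG (98.5 ± 14.2), SCM + anti-Ptk7 (86.5 ± 17.9), Wnt5a + anti-Ptk7 (66.8 ± 19.2) and complete media (54.4 ± 9.56), and the libraries of each neighbouring pair in this order overlapped.

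Akp3 did not rise with Alpi in the comparisons with complete media. Its libraries lay between 24.6 and 49.3 CPM in complete media (median 46.6), between 26.5 and 51.6 in SCM (median 35.4) and between 19.8 and 33 in Wnt5a (median 24.7). It fell in Wnt5a (log2 −0.67 ± 0.206, adjusted p = 0.0176), where Alpi rose, and fell further with anti-Ptk7 in Wnt5a (−0.86 ± 0.211, adjusted p = 0.0189), to between 8.98 and 19.6 CPM, below every library of Wnt5a with IgG. With the antibody in Wnt5a, 0.432% of all genes tested were called lower and 2.38% did not overlap. In SCM it was −0.12 and in QCM 0.19, neither of them called (adjusted p = 0.761 and 0.784). With anti-Ptk7 in SCM it was −0.46 ± 0.206 and not called (adjusted p = 0.242), so both phosphatases had a negative difference with the antibody in each medium. Of the 2288 distinct 50-base stretches of Alpi transcripts, 35 also occur in Akp3, so reads of these genes could be separated over nearly all of their length.

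**Figure D2:**
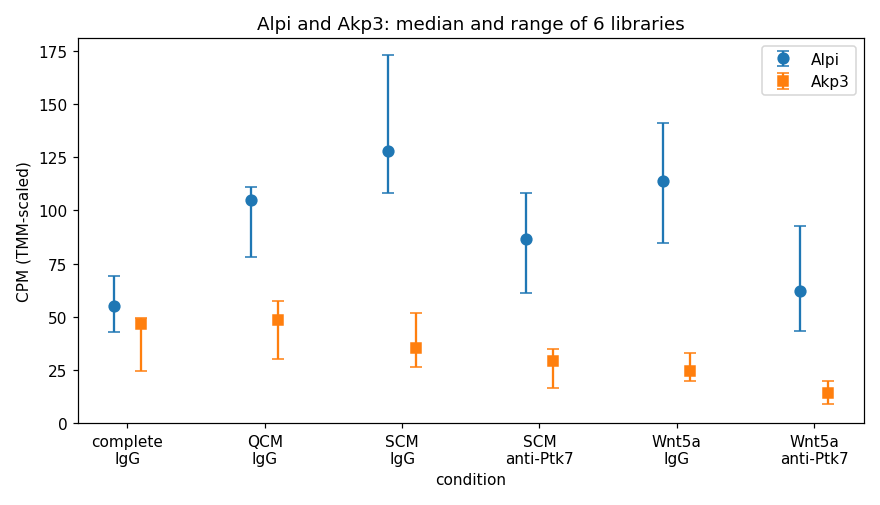
TMM-scaled CPM (linear axis from 0) of Alpi and Akp3 in the 6 conditions, with points for the median and bars from the lowest to the highest of 6 libraries. Alpi libraries of QCM, SCM and Wnt5a with IgG lie above all those of complete media, while the Akp3 median is 46.6 in complete media and 24.7 in Wnt5a.

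None of the 4 disaccharidases was called in any comparison by edgeR without the replicate block, by DESeq2 or by voom with limma. Sis, sucrase-isomaltase, which digests sucrose and starch products, varied widely within conditions, from 195 to 505 CPM in complete media (median 312), from 151 to 295 in QCM (median 234), from 132 to 292 in SCM (median 232) and from 163 to 363 in Wnt5a (median 298). These ranges overlap throughout. Its log2 difference from complete media was −0.53 in QCM (95% interval −1.01 to −0.05, adjusted p = 0.387), −0.54 in SCM (−1.02 to −0.06, adjusted p = 0.163) and −0.17 in Wnt5a (−0.65 to 0.31, adjusted p = 0.681).

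Mgam, maltase-glucoamylase, which releases glucose from starch products, lay between 159 and 258 CPM in complete media (median 190) and between 108 and 178 in SCM (median 155). Of the SCM libraries, 3 were below every library of complete media. The log2 difference was −0.45 ± 0.137 (adjusted p = 0.0278), which passed on its p-value but not on the fold change. It was −0.27 in QCM (adjusted p = 0.446) and −0.32 in Wnt5a (adjusted p = 0.0914).

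Lct, lactase, the milk-sugar enzyme, showed the smallest part of its variance between conditions, and its medians moved only between 31.3 CPM in complete media and 38 in Wnt5a. Its libraries in SCM spanned 14.4 to 60.1 CPM, and its log2 difference from complete media there was 0.22 (interval −0.39 to 0.83, adjusted p = 0.719), an interval that includes a 1.5-fold change upwards.

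Treh, trehalase, was the least abundant, with 4.70 to 12 CPM in complete media (median 8.78), 2.79 to 11.3 in SCM (median 5.80) and 1.73 to 11.4 in Wnt5a (median 6.26). With anti-Ptk7 in SCM the libraries lay between 6.67 and 11.2 CPM (median 9.08), and the difference from SCM with IgG was 0.53 (interval −0.14 to 1.19, adjusted p = 0.450). With the replicate number as a block this difference was 0.65 and was called (adjusted p = 0.0494).

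Of the peptidases, Anpep, aminopeptidase N, which trims amino acids from the ends of peptides, had its highest level in complete media, at 112 to 147 CPM (median 118). It lay between 50.8 and 88.3 in QCM (median 69.4), between 22.9 and 63.3 in SCM (median 48.5) and between 26.3 and 89.0 in Wnt5a (median 72.7). No library of these 3 conditions reached the lowest of complete media. Anpep fell 2.76-fold in SCM (log2 −1.46 ± 0.250, adjusted p = 0.000124) and 1.88-fold in Wnt5a (−0.91 ± 0.246, adjusted p = 0.00663). In QCM the difference was −0.82 ± 0.246 with an adjusted p of 0.127, and it was called with the replicate block (−0.87, adjusted p = 0.000868), with DESeq2 (−0.83, adjusted p = 0.0380) and in a fit of those groups alone (−0.83, adjusted p = 0.00310). SCM against QCM was −0.65 (adjusted p = 0.163), and −0.69 with the block (adjusted p = 0.00476).

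With anti-Ptk7 Anpep lay between 32.8 and 62.8 CPM in SCM (median 42.1), a log2 difference of 0.02 (interval −0.47 to 0.50, adjusted p = 0.982). In Wnt5a it lay between 16.8 and 65.5 CPM with the antibody (median 49.4), a difference of −0.50 (interval −0.98 to −0.01, adjusted p = 0.340). The unadjusted p of the edgeR test was 0.0524 there. The interval in SCM does not reach a 1.5-fold change on either side, and that in Wnt5a does on the lower side.

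Dpp4, dipeptidyl peptidase, which also cleaves the incretin hormones, lay between 97.3 and 183 CPM in complete media (median 157), 63.4 and 118 in QCM (median 107), 66.2 and 133 in SCM (median 89.2) and 50.5 and 133 in Wnt5a (median 109). Its log2 differences from complete media were alike in size, at −0.56 (adjusted p = 0.283), −0.63 (adjusted p = 0.0636) and −0.54 (adjusted p = 0.0860). That in SCM was called with the replicate block (−0.65, adjusted p = 1.50e-05), with DESeq2 (−0.64, adjusted p = 0.0335), in a fit of those groups alone (−0.63, adjusted p = 0.0361), and without complete media replicate 1 (−0.73, adjusted p = 0.0331), SCM + IgG replicate 2 (−0.74, adjusted p = 0.0416) or SCM + IgG replicate 3 (−0.76, adjusted p = 0.0318).

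Vil1 encodes villin, which bundles and severs the actin of the microvillus core. Its libraries lay between 547 and 661 CPM in complete media (median 643), 599 and 715 in QCM (median 668), 718 and 893 in SCM (median 732) and 773 and 1001 in Wnt5a (median 819). The libraries of SCM and of Wnt5a were all above those of complete media, and those of SCM all above those of QCM, where 2.19% of all genes tested did not overlap and the log2 difference of Vil1 was 0.20 and not called (adjusted p = 0.203). The log2 difference from complete media was 0.28 ± 0.0836 in SCM (adjusted p = 0.0244) and 0.43 ± 0.0837 in Wnt5a (adjusted p = 0.000304), which passed on the p-value but stayed under the 1.5-fold cutoff. With anti-Ptk7 the medians were 765 in SCM and 881 in Wnt5a, and the differences from IgG were 0.07 (interval −0.09 to 0.24) and 0.11 (interval −0.05 to 0.27).

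**Figure D3:**
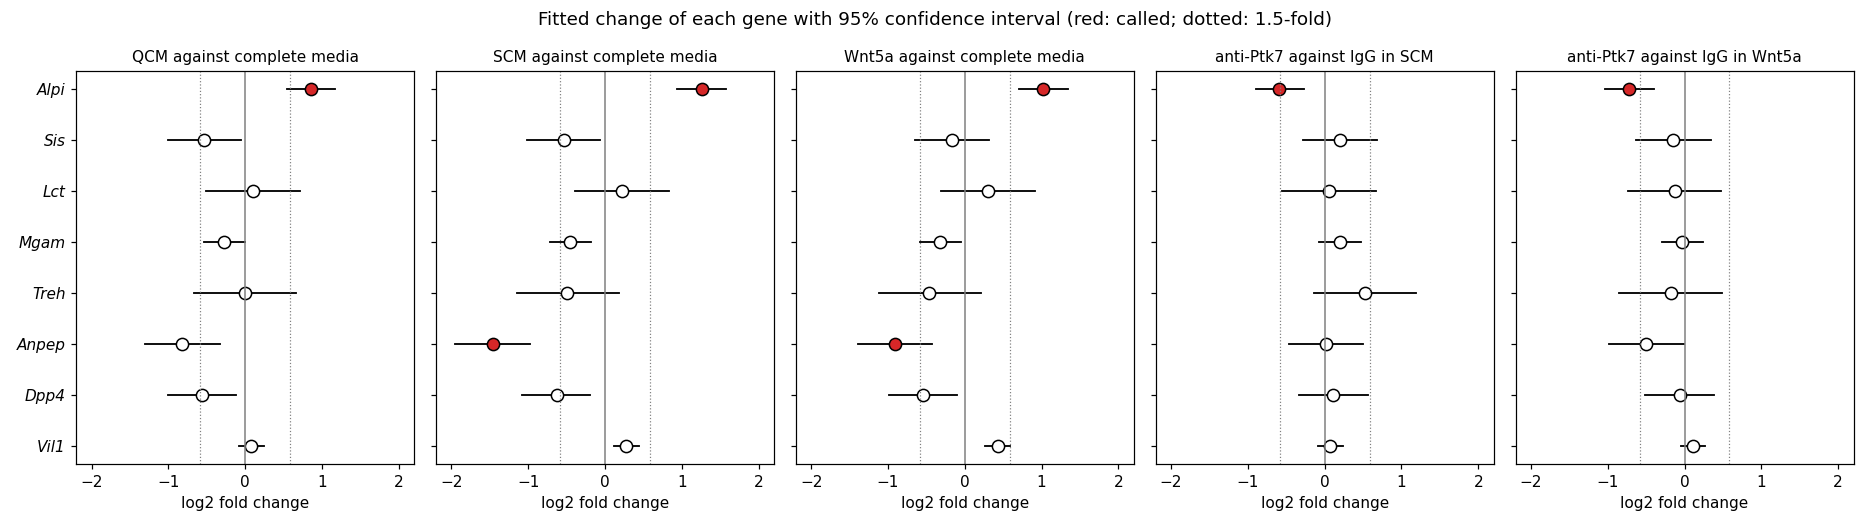
Fitted log2 fold change of each gene in 5 comparisons (horizontal axis), with its approximate 95% interval as a line. Dotted lines mark 1.5-fold in either direction, and genes called are in red. Alpi is called in all 5, higher in the first 3 and lower with anti-Ptk7, and Anpep is called lower in SCM and in Wnt5a.

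Counted over the 8 genes, 1 was called in QCM (Alpi), where 0.374% of all genes tested were called in either direction. In SCM 2 were called (Alpi higher, Anpep lower), beside 6.08% of all genes, and the same 2 in Wnt5a, beside 10.2%. With anti-Ptk7, 1 was called in SCM (beside 1.23% of all genes) and 1 in Wnt5a (beside 0.884%), both Alpi. In SCM against QCM 0 of the 8 were called by edgeR without the replicate block, by DESeq2 and by voom with limma. The shares of all genes called were 0.903%, 1.70% and 1.10% in that order. With the replicate number as a block 1 was called (Anpep lower), beside 3.20% of all genes. Without the block, 3 were at an unadjusted p under 0.05 with edgeR, beside 17% of all genes. In Wnt5a against SCM the count was 0 with all of these tools and with the block. The shares of all genes there were 0.690% with edgeR, 0.994% with DESeq2, 0.968% with voom and 1.67% with the block. In that comparison 1 of the 8 was at an unadjusted p under 0.05 with edgeR without the block, beside 18.9% of all genes. The edgeR shares without the block depended on single libraries. They lay between 0.223% (without QCM replicate 3) and 1.18% (without QCM replicate 6) in SCM against QCM. In Wnt5a against SCM they lay between 0.128% (without Wnt5a + IgG replicate 5) and 1.14% (without Wnt5a + IgG replicate 2). The count among the 8 stayed at 0 with each library left out, in fits that all lacked the block. With the libraries of number 1 removed it was 1 in SCM against QCM. The difference between the antibody's effects gave 0 calls among the 8 with the same tools, beside 0.00% of all genes, and 0 were at an unadjusted p under 0.05, beside 3.88%. Libraries did not overlap for 2 of the 8 genes in QCM, 3 in SCM and 3 in Wnt5a against complete media, beside 1.74%, 6.29% and 11.7% of all genes tested. The median log2 difference of the 8 was −0.13 in QCM, −0.47 in SCM and −0.25 in Wnt5a, against 0.02, 0.01 and 0.01 over all genes. These 3 comparisons share the complete media libraries. The set did not share a direction, and in SCM the log2 differences ran from −1.46 for Anpep to 1.26 for Alpi, with 3 above 0 and 5 below.

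Marker lists of other epithelial states gave the following sums in the same libraries. The 4 fetal-like genes Clu, Ly6a, Anxa1 and Msln summed to a median of 445 CPM in complete media (196 to 1025), 731 in QCM (428 to 1372), 2318 in SCM (1261 to 4601) and 4416 in Wnt5a (3537 to 10804), and all 4 were called higher in both SCM and Wnt5a, where 4.96% and 8.29% of all genes tested were called higher. Under anti-Ptk7 the sum had a median of 1064 in SCM (563 to 2425) and 3015 in Wnt5a (2302 to 9269), and of the 4 genes Ly6a was called lower in both, beside 0.645% and 0.432% of all genes called lower. The 6 epithelial genes summed to a median of 8449 CPM in complete media (7517 to 10902), 14801 in SCM (11710 to 19637) and 15165 in Wnt5a (14096 to 27991), and the 5 stem cell genes to 3509 (2891 to 3987), 3133 (2199 to 3695) and 3399 (2112 to 3626), with ranges that overlapped. The part of these values in the changes of Alpi, Anpep and the other brush border genes was not tested.

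Libraries of replicate number 1 stood apart for most of the 8 genes. Averaged over the 6 conditions, they deviated from the condition mean by −0.92 log2 units for Treh, −0.73 for Anpep, −0.72 for Lct, −0.67 for Sis, −0.67 for Dpp4 and −0.22 for Mgam, but by 0.24 for Alpi and 0.16 for Vil1. For Sis, Dpp4 and Anpep the replicate 1 library was the lowest of its condition in all 6 conditions. The same libraries had the highest fetal-like sum and the lowest stem cell sum of their condition in all 6. Number 6 was low for Alpi, by −0.30 on average, and number 5 high, by 0.29. With the libraries of number 1 removed from every condition, a choice made after the data were seen, Anpep was called lower in QCM (−0.76, adjusted p = 0.0125) and in SCM against QCM (−0.59, adjusted p = 0.0405), and Dpp4 lower in SCM (−0.64, adjusted p = 0.0118), while Alpi stayed called with anti-Ptk7, at −0.68 in SCM (adjusted p = 0.0279) and −0.79 in Wnt5a (adjusted p = 0.0136).

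**Figure D4:**
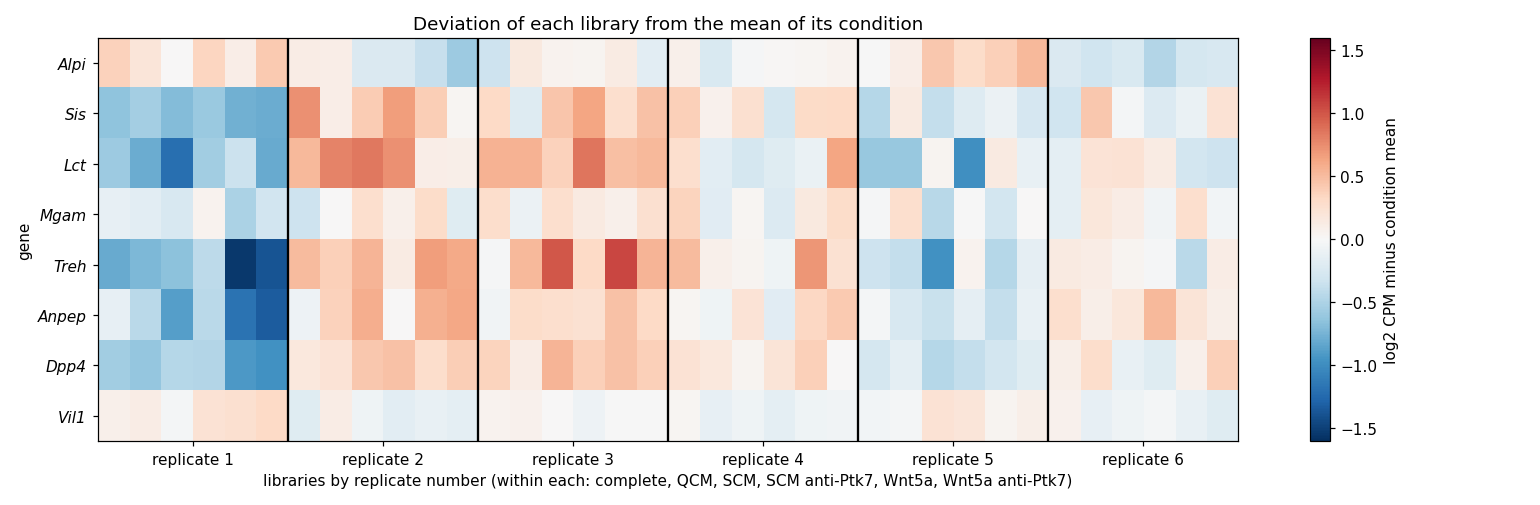
Deviation of log2 CPM from the mean of the library's condition (colour) for the 8 genes in the 36 libraries, grouped by replicate number and, within a number, by condition. The replicate 1 block is blue for Sis, Treh, Anpep and Dpp4 and pale red for Alpi and Vil1.

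After the condition means were removed, the 8 genes fell into 2 groups by their correlation over the 36 libraries. The highest values were 0.89 between Dpp4 and Treh, 0.86 between Sis and Dpp4 and 0.85 between Anpep and Treh, and every pair among Sis, Lct, Mgam, Treh, Anpep and Dpp4 was at 0.38 or above. Alpi correlated with Vil1 at 0.67, and with the other six between −0.57 and −0.29. The 36 libraries share replicate numbers, which differed as described above, so these values are a description of the libraries.

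**Figure D5:**
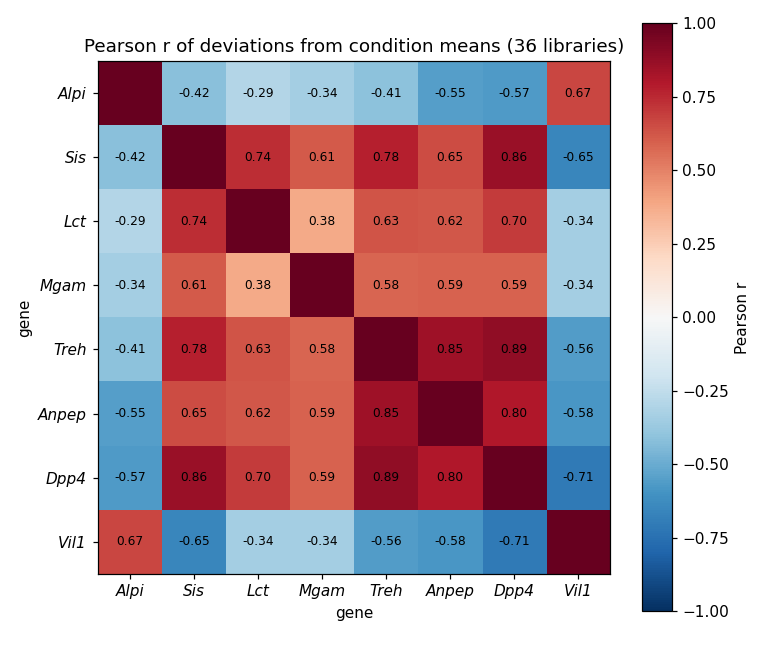
Pearson r between each pair of the 8 genes (axes) over 36 libraries, after the mean of each condition was removed, with the value in each cell. Alpi and Vil1 are positive with each other (0.67) and negative with the other six.

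Over all tested genes, those whose log2 CPM correlated best with a brush border gene over the 36 libraries were, for Alpi, Rbp2, which encodes an intestinal retinol-binding protein (r = 0.82), Cnfn (0.78) and 2200002D01Rik (0.78). For Anpep they were Smoc2, a stem cell marker (0.91), 5330417C22Rik (0.90) and Clca3b (0.90). Slc5a1, the sodium-glucose transporter of the same membrane, was nearest to Dpp4 (0.91), ahead of Maob (0.88) and Pdcd4 (0.86), and second to Treh (0.87), between Otc, a urea cycle enzyme (0.88), and Hsd17b13 (0.86). Sis was nearest to Cyp4v3 (0.84), Dpp4 itself (0.83) and Akr1c14 (0.82), and Vil1 to App, Myo15b and Ctnnb1 (0.92 each). Mgam was nearest to 9130208D14Rik (0.83), Prlr (0.80) and Gm45912 (0.78), and Lct to Cxxc5 (0.78), Cpq (0.74) and Clic6 (0.74).

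Of 15 further hydrolases of the brush border that were listed, 12 were tested, and 3 fell in SCM with none higher. Over all genes tested, 1.12% were called lower there and 4.96% higher. Ace, angiotensin-converting enzyme, fell from 9.82 to 19.2 CPM in complete media to 3.73 to 8.40 in SCM, without overlap (log2 −1.28 ± 0.250, adjusted p = 0.000612). Enpep, glutamyl aminopeptidase, fell from 52.2 to 88.4 CPM to 22.9 to 41.1, also without overlap, with means of 65.2 and 32.5 (adjusted p = 5.17e-05). Mep1a, a meprin metalloprotease subunit, fell by 0.86 on the log2 scale (adjusted p = 0.0348). The list's median was −0.50 in SCM, against 0.01 over all genes. In Wnt5a 1 of the 12 fell, which was Akp3, beside 1.88% of all genes called lower. Enpep was higher in Wnt5a than in SCM (0.78 ± 0.160, adjusted p = 0.0123), at 41.5 to 69.0 CPM against 22.9 to 41.1.

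With anti-Ptk7 in SCM, Mep1a rose from 3.13 to 11.5 CPM to 12 to 29.4, without overlap (log2 1.36 ± 0.274, adjusted p = 0.00470). It was the only one of the 12 tested hydrolases called there, beside 0.581% of all genes called higher and 1.73% that did not overlap. Mep1a was 0.57 in Wnt5a (adjusted p = 0.303), and the difference between these effects was −0.79 ± 0.381 (adjusted p = 0.999). Alpi and Mep1a thus moved in opposite directions with the antibody in SCM.

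Of 15 listed genes of the microvillus core, its membrane links and its adhesion, all were tested, and 1 rose in SCM and 3 in Wnt5a, with none lower. Over all genes tested, calls also ran mostly upwards: SCM raised 4.96% of them and lowered 1.12%, and for Wnt5a these shares were 8.29% and 1.88%. Vill, a villin-like gene, lay between 1.46 and 9.91 CPM in complete media (median 3.94), 3.32 and 25 in QCM (median 11.2), 14.3 and 83.7 in SCM (median 39.5) and 75.6 and 274 in Wnt5a (median 97.3). It rose in SCM (log2 3.15 ± 0.533, adjusted p = 0.000111) and in Wnt5a (4.67 ± 0.554, adjusted p = 2.11e-07), and no library of either overlapped with complete media. In Wnt5a Cdhr2, a protocadherin that links the tips of microvilli, rose by 0.82 ± 0.161 (adjusted p = 0.000335), and Ezr, ezrin, which ties the actin core to the membrane, by 0.60 ± 0.166 (adjusted p = 0.00762). Vill was also called higher in SCM against QCM by edgeR (1.80, adjusted p = 0.0455), the only one of the 15 there, beside 0.761% of all genes called higher. With voom and limma 0 of the 15 were called in that comparison. The list's median was 0.19 in SCM and 0.30 in Wnt5a.

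Of the 12 regulators of enterocyte differentiation listed, 0 were called by edgeR, DESeq2 or voom with limma in any comparison. At an unadjusted p under 0.05 there were 4 in SCM, 3 in Wnt5a and 1 in QCM against complete media, 4 in SCM against QCM, 2 in Wnt5a against SCM, and with anti-Ptk7 1 in Wnt5a and 0 in SCM. In the same order, the shares of all genes tested at this p were 24.7%, 33.1%, 12%, 17%, 18.9%, 15% and 17.1%. Hnf4a had means between 786 and 873 CPM over the 6 conditions. Cdx1, an intestinal homeobox gene, was named after its values were seen, and averaged 594 CPM in complete media, 481 with SCM and 418 with Wnt5a (log2 −0.50 ± 0.0893, adjusted p = 9.57e-05), under the fold-change cutoff.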

How the data were processed

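Total RNA of 36 organoid cultures was the input for Smart-Seq V4 and Nextera XT libraries, a preparation that does not mark the strand. The libraries were sequenced as single-end reads. The authors aligned the reads with GSNAP 2013-11-01, run through HTSeqGenie, to the mouse genome (NCBI Build 38) and deposited raw counts per gene as whole numbers. Their methods state that reads in coding sequence were counted. The gene annotation is not given in the sources used here.

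Names and positions came from GENCODE M21, which holds all 8 genes. The packages edgeR 4.0.16, DESeq2 1.42.0 and limma 3.58.1 were run in R 4.3.3. Genes were filtered with filterByExpr (15497 kept), libraries scaled by TMM (factors 0.908 to 1.03), and the quasi-likelihood test of edgeR was fitted to all 36 libraries with 6 condition means. A gene was called at a Benjamini-Hochberg adjusted p under 0.05 over all genes and a fold change over 1.5. CPM is linear, and log2 CPM used a prior count of 2. Intervals are approximate 95% intervals. They use a normal distribution around the fitted difference, with an SE derived from the difference and the test statistic. They take no account of the test's limited degrees of freedom and are somewhat narrow. For Anpep with anti-Ptk7 in Wnt5a the interval excluded 0, while the unadjusted p of the edgeR test was 0.0524. The procedures were tested on simulated data.

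The 8 genes, the lists and the tests were chosen with earlier results of these data known. By rule, genes to name were the 8, up to 3 called genes of each further list per comparison, by size of change, and the 3 best correlated genes of each of the 8. The values of some called list genes are not printed, and genes named outside the rule, as not called, are given by their values. Further lists were brush border hydrolases, microvillus genes, differentiation regulators and markers of epithelium, stem cells, proliferation, goblet, Paneth, enteroendocrine and tuft cells, fetal-like epithelium, fibroblasts and leukocytes. Some genes first placed on these lists are not reported here and were left out of the lists' counts, medians and sums.

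The design text names 6 mice with identifiers 1 to 6, and each condition has replicates 1 to 6, but no label states that the number is the mouse. Deviations from condition means correlated at a mean of 0.0920 between libraries of the same number and −0.0180 between others, and 34 of 90 same-number pairs were over 0.1. The fit with the number as a block is therefore an alternative, and p-values measure the spread between these libraries, which may be in part technical. The other alternatives left out each library in turn, kept only the groups compared or all genes, scaled by the upper quartile or by library size alone, or replaced the test by DESeq2 or by limma's voom after quantile normalization.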

Additional observations from a re-analysis of the deposited data

Results flagged for a closer look

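Of 48 groups of 6 libraries (8 genes in 6 conditions) 1 held a library far from its neighbours, a number that chance alone could give. It was Vil1 in SCM + IgG, where replicate 5 had 892.7 CPM and the next library 759.8, a gap of 0.762 of the whole range of the group.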

How the results depend on the processing

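The calls of Alpi in QCM, SCM and Wnt5a and of Anpep in SCM and Wnt5a held under all alternatives with a test. With the replicate number as a block, 2 of the 8 genes were called in QCM, 3 in SCM (Dpp4 lower as the third), 1 in SCM against QCM and 2 with anti-Ptk7 in SCM, and the block left the count of the other 4 comparisons as it was. In SCM the count was also 3, with Dpp4 lower, with DESeq2, with only the groups compared, with the libraries of number 1 removed, and without complete media replicate 1, SCM + IgG replicate 2 or SCM + IgG replicate 3. The count was 2 in QCM with DESeq2, with only the groups compared and with the libraries of number 1 removed, and 1 in SCM against QCM with number 1 removed. With anti-Ptk7 in SCM it was 0 with voom, DESeq2, upper-quartile scaling, no filter and only the groups compared, and with each library left out it ranged from 0 to 1. With anti-Ptk7 in Wnt5a it was 0 with only the groups compared. Why the calls with anti-Ptk7 were lost in these fits was not tested. A few differences near 0 changed sign, none of them called. Treh in Wnt5a against SCM was −0.09 with voom and −0.02 with the block. With number 1 removed, Sis was 0.00 in SCM against QCM, Lct −0.02 in Wnt5a against SCM, and with anti-Ptk7 in SCM Lct was −0.02, Anpep −0.06 and Vil1 −0.00. With each library left out, Lct ranged from −0.10 to 0.23 in QCM, −0.00 to 0.37 in SCM, −0.09 to 0.30 in SCM against QCM, −0.07 to 0.29 in Wnt5a against SCM, −0.15 to 0.27 with anti-Ptk7 in SCM, −0.28 to 0.00 with it in Wnt5a and −0.39 to 0.02 in the difference of these. Treh ranged from −0.15 to 0.11 in QCM, −0.19 to 0.29 in Wnt5a against SCM and −0.37 to 0.05 with anti-Ptk7 in Wnt5a. Dpp4 ranged from −0.19 to 0.02 in SCM against QCM and −0.21 to 0.08 with anti-Ptk7 in Wnt5a, Sis from −0.10 to 0.11 in SCM against QCM, Anpep from −0.12 to 0.15 with anti-Ptk7 in SCM, Mgam from −0.12 to 0.03 with anti-Ptk7 in Wnt5a, and Vil1 from −0.04 to 0.09 in the difference of the antibody's effects. The share of all genes called moved by over 1.5 times without some single libraries and in some other fits. With no filter, where 29759 genes were tested, it was 0.155% in QCM, 2.79% in SCM and 5.06% in Wnt5a against complete media. In that fit it was 0.370% in SCM against QCM and 0.276% in Wnt5a against SCM. With anti-Ptk7 it was then 0.460% in SCM and 0.339% in Wnt5a. In SCM against QCM the share was 0.306%, 0.223% and 0.299% without QCM replicates 2, 3 and 4 and 0.344%, 0.541% and 0.579% without SCM + IgG replicates 1, 5 and 6. There it was 3.20% with the block, 1.70% with DESeq2, 1.85% with only the groups compared and 1.79% with number 1 removed. In Wnt5a against SCM it was 0.210%, 0.427% and 0.255% without SCM + IgG replicates 1, 4 and 6 and 0.140%, 1.14% and 0.128% without Wnt5a + IgG replicates 1, 2 and 5. There it was 1.67% with the block, 0.358% with only the groups compared and 0.206% with number 1 removed. In QCM it was 0.242% and 0.236% without complete media replicates 3 and 4, 1.15% with the block and 0.792% with number 1 removed. With anti-Ptk7 in SCM it was 0.669% without SCM + IgG replicate 1, 0.777% without SCM + anti-Ptk7 replicate 2 and 2.57% with the block, and in Wnt5a 0.517% without Wnt5a + anti-Ptk7 replicate 5 and 1.65% with the block. Treh had the lowest mean of the 8 genes, 7.49 CPM, and so the fewest counts behind its values.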

Other observations

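Markers of other cell types gave the following values. Of the 6 epithelial genes, 4 rose in SCM and 5 in Wnt5a, beside 4.96% and 8.29% of all genes called higher, among them Krt20, a keratin of differentiated villus cells (log2 1.84 and 2.26, adjusted p = 0.00146 and 8.37e-05). Of the 5 stem cell genes, Smoc2 fell in SCM (−0.77, adjusted p = 0.00209) and in Wnt5a (−0.67, adjusted p = 0.00371), and no other was called there, beside 1.12% and 1.88% of all genes called lower. The mean of Olfm4 was 470 CPM under complete media, 638 under SCM and 610 under Wnt5a, and that of Ascl2 was 27.5, 39.2 and 36.6. Of the 5 Paneth cell genes, Ang4 and Mmp7 rose in both media. In Wnt5a the list had no common direction, with means of 552 CPM in complete media and 434 in Wnt5a for Lyz1, 104 and 85.1 for Defa17 and 912 and 846 for Defa24, none of these called, and its sum had a median of 1670 and 1601 CPM. With anti-Ptk7 in Wnt5a, edgeR called 1 of the 5, Lyz1 (−0.63, adjusted p = 0.00374), beside 0.432% of all genes called lower, and DESeq2 called 2. With the antibody in SCM 0 were called by edgeR, DESeq2 or voom with limma, and 4 were at an unadjusted p under 0.05, beside 17.1% of all genes. The 3 tested tuft cell genes Dclk1, Trpm5 and Avil rose in Wnt5a, where 8.29% of all genes were called higher. Of the 5 enteroendocrine genes, 1, the hormone gene Gip, fell with anti-Ptk7 in SCM (−1.06, adjusted p = 0.00368) and in Wnt5a (−0.83, adjusted p = 0.0201), beside 0.645% and 0.432% of all genes called lower. The other 4 (Chga, Chgb, Neurod1 and Gcg) were not called with the antibody, with log2 differences between −0.38 and −0.03 in SCM and between −0.36 and 0.34 in Wnt5a. Median log2 differences in SCM were −0.18 for the 5 proliferation genes and 0.12 for the 5 goblet cell genes, none of which was called by edgeR, DESeq2 or voom with limma, with 2 and 0 of them at an unadjusted p under 0.05, beside 24.7% of all genes. The fibroblast and leukocyte genes did not pass the filter on low counts.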
